A study of Homo sapiens with 6 samples.

Results

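The beta-tubulin isotypes are the family of genes that encode beta-tubulin, the protein that taxanes bind. The 8 members were taken by symbol from the deposited RNAseq tables: TUBB, TUBB4B, TUBB2A, TUBB2B, TUBB3, TUBB4A, TUBB6 and TUBB1, which are 8 of 58735 genes. RNAseq was performed in the castration resistant prostate cancer line C4-2B (parental) and in its subclone RC4-2B, which was made resistant to the taxane cabazitaxel (CBZ) in repeated 72 h treatments, starting at 0.1 nM and reaching 20 nM after 4 months. There were 3 biological replicates of each line, and no drug is named for the cells that were sequenced. RC4-2B is 1 resistant line, so the comparison describes that line and not CBZ resistance in general.

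Microtubules are polymers of alpha- and beta-tubulin dimers. Taxanes bind beta-tubulin inside the microtubule and block its disassembly, which arrests cells in mitosis. The isotypes share a nearly common body and differ most in an acidic C-terminal tail, which projects from the microtubule surface and is modified by tail enzymes. TUBB and TUBB4B are made by most cells, TUBB2A and TUBB2B are abundant in neurons, TUBB3 is a neuronal isotype that is often discussed in taxane resistance, TUBB4A is best known from brain, TUBB6 is made in many tissues, and TUBB1 is the isotype of megakaryocytes and platelets. Free tubulin also feeds back on tubulin synthesis: TTC5 recognises the first residues of a nascent beta-tubulin chain, and the mRNA being translated is then degraded.

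The coding sequences show where the isotypes can be told apart. Sequences were read from GRCh38 with the MANE Select transcripts of GENCODE release 44. The first 12 bases, which encode the residues read in autoregulation, were written in 6 different ways by the 8 genes. They are shown in capitals in the first 30 coding bases of the most abundant isotypes and of the isotypes that rose in RC4-2B, and TUBB and TUBB4B had the same 12 bases.
TUBB (chr6:30720507-30720536, plus strand): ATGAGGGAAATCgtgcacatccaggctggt
TUBB4B (chr9:137241361-137241390, plus strand): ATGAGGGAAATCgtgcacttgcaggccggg
TUBB4A (chr19:6502183-6502212, minus strand): ATGCGGGAGATCgtgcacctgcaggccggc
TUBB6 (chr18:12308293-12308322, plus strand): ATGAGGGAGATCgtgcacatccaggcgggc

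The coding ends, which encode the C-terminal tails, differed more. Capitals in the last 75 coding bases, with the stop codon, mark the bases that differ from TUBB in a pairwise alignment. TUBB1 is left out.
TUBB (chr6:30724323-30724397, plus strand): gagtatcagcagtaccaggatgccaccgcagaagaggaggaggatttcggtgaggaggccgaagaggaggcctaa
TUBB4B (chr9:137243482-137243556, plus strand): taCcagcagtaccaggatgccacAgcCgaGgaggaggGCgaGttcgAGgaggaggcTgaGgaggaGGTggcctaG
TUBB4A (chr19:6495164-6495238, minus strand): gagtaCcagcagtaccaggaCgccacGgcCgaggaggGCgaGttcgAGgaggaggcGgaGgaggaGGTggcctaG
TUBB6 (chr18:12326056-12326130, plus strand): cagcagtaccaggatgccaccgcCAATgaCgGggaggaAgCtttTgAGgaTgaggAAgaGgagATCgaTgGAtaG
TUBB2A (chr6:3153863-3153937, minus strand): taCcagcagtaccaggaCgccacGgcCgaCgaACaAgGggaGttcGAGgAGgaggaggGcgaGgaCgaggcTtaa
TUBB2B (chr6:3224751-3224825, minus strand): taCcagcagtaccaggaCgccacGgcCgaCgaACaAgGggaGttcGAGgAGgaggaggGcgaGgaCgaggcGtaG
TUBB3 (chr16:89935730-89935804, plus strand): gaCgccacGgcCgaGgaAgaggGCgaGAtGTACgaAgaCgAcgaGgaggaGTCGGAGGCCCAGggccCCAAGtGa

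In these last 75 bases, 15 differed from TUBB in TUBB4B, 15 in TUBB4A, 22 in TUBB6 and 36 in TUBB3. Over the 7 isotypes compared with TUBB, 20.0% to 49.3% of the last 75 bases differed, against 14.6% to 23.2% of the rest of the coding sequence. TUBB2A and TUBB2B were 98.1% identical over their coding sequences. TUBB and TUBB4B were 84.4% identical.

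Similar paralogs matter for the counts, because a read from a shared stretch can be assigned to more than 1 gene. Of all 100-base windows of the MANE Select transcript, those found in no other gene made up 94.6% in TUBB, 97.0% in TUBB4B and 100% in TUBB4A, TUBB6 and TUBB1. For TUBB2A and TUBB2B this share was only 44.4% and 51.3%, with each other as the main partner. TUBB3 had 7.47% unique windows, because 92.8% of its transcript is also part of a readthrough row, AC092143.1, listed at 0 counts in all 6 libraries. The values of TUBB2A, TUBB2B and TUBB3 therefore carry a counting uncertainty that those of TUBB4A and TUBB6 do not carry at this window length. How the authors' counter treated shared reads is not given in the sources used here.

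**Figure D1:**
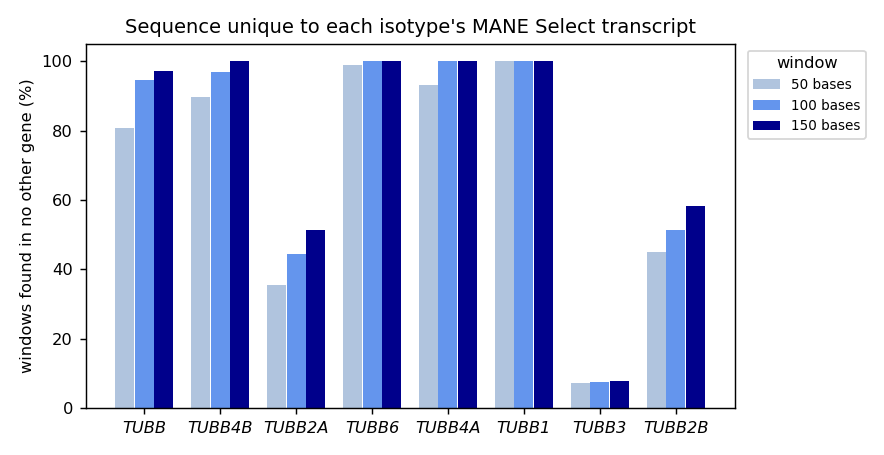
Percent of windows of 50, 100 and 150 bases (y axis) of each isotype's MANE Select transcript (x axis) that match no other gene exactly. TUBB4A, TUBB6 and TUBB1 reach 100% at 100 bases, where TUBB2A, TUBB2B and TUBB3 are at or under 51.3%.

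The libraries held 15707134 to 18052517 counts, so that 3 counts, taken as the floor of detection, correspond to 0.166 to 0.191 CPM, a count relative to its library's total. RC4-2B replicate 2 stood apart: the SD of its log2 difference from replicates 1 and 3 was 0.61 and 0.53, against 0.23 between those replicates and 0.14 to 0.20 within C4-2B. Its differences from the C4-2B mean ran with transcript GC content, at a Spearman rho of -0.69 (10543 genes, not independent replicates). The same rho was -0.12 for RC4-2B replicate 1 and -0.38 for RC4-2B replicate 3, so the trend was not confined to replicate 2. This bears on the isotypes, because the GC content of the MANE Select transcript is 51.1% for TUBB but 59.3% for TUBB4B and 60.6% for TUBB4A. Values without RC4-2B replicate 2 are given where it moved them most. The prostate epithelial markers were present, with 7 of 7 detected, although their summed level was 608 to 636 FPKM in C4-2B and 395 to 488 FPKM in RC4-2B. Of these markers, KLK3 (log2 fold change -4.33) and TMPRSS2 (-1.08) passed the threshold used below and were lower in RC4-2B, and only 1 of the 7 was called without any 1 C4-2B library or without RC4-2B replicate 3. In bulk RNA, fewer cells that make a transcript and less transcript per cell cannot be told apart.

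TUBB and TUBB4B made up nearly all beta-tubulin mRNA in both cell lines. Levels of different genes were compared in the deposited FPKM, which divide counts by gene length and library total. TUBB (ENSG00000196230, chr6:30720201-30725426, plus strand) was at 544, 526 and 478 FPKM in C4-2B replicates 1 to 3 and at 445, 522 and 427 FPKM in RC4-2B replicates 1 to 3. Mean FPKM over all libraries ranked it 48 of 58735 genes. TUBB4B (ENSG00000188229, chr9:137241213-137243707, plus strand) was at 371, 351 and 322 FPKM in C4-2B, against 399, 294 and 410 FPKM in RC4-2B, and ranked 68. The groups overlapped for both genes, and TUBB was above TUBB4B in every library.

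The other isotypes were far lower. TUBB2A was at 9.12 to 11.1 FPKM in C4-2B and 7.54 to 11.3 FPKM in RC4-2B, and TUBB6 at 5.92 to 7.11 and 10.1 to 11.3 FPKM. TUBB2A was above TUBB6 in every C4-2B library, but the ranges of the isotypes overlapped in RC4-2B. TUBB4A was lower than both in every library, at 1.60 to 6.30 FPKM. This order depends on the gene lengths behind the FPKM: with counts per coding length, TUBB6 was above TUBB2A in every C4-2B library, and TUBB4A was above TUBB2A in RC4-2B replicate 3 (0.918% against 0.640% of the sum). TUBB1, TUBB3 and TUBB2B were at 0.168 FPKM or less in every library, with 1 to 11 counts each. TUBB2B overlapped with both of the others, so its place in this order is not resolved.

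**Figure D2:**
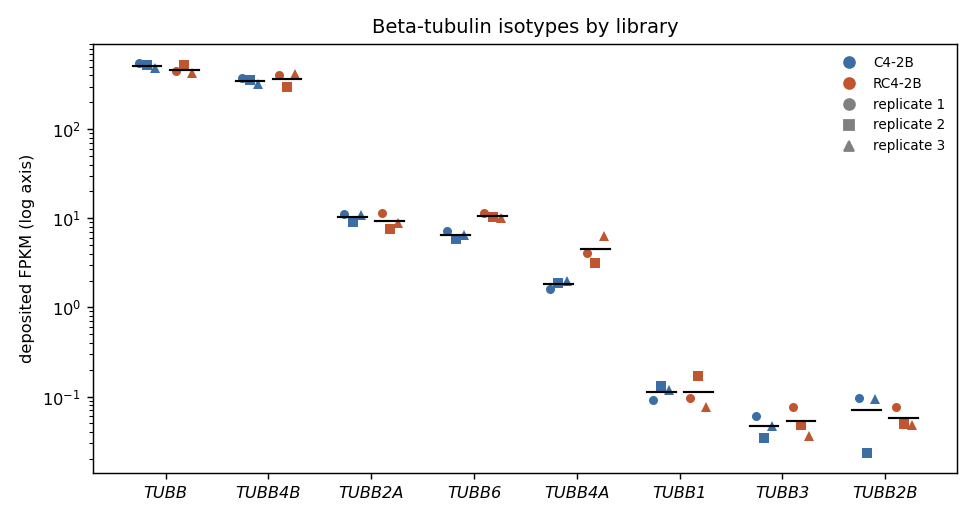
Deposited FPKM (y axis, log scale) of the 8 isotypes (x axis) in 3 C4-2B and 3 RC4-2B libraries, where points are libraries and lines are group means. TUBB and TUBB4B lie above 290 FPKM, TUBB2A, TUBB6 and TUBB4A between 1.60 and 11.3 FPKM, and the other isotypes at or under 0.168 FPKM.

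Of the 8 isotypes, 2 rose in RC4-2B, none fell, 3 did not pass the test and 3 had too few counts to be tested. The isotypes that rose were TUBB4A and TUBB6, and these were also the only ones at an unadjusted p under 0.05. The test was edgeR's quasi-likelihood test on the counts, with Benjamini-Hochberg adjustment over 15054 genes and a threshold of 0.05. It called 298 genes, which is 1.98% of those tested, with 1.08% higher and 0.903% lower in RC4-2B. Of the 5 isotypes tested, 2 had groups that did not overlap in CPM, as did 34.1% of all genes tested.

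TUBB4A (ENSG00000104833, chr19:6494319-6502848, minus strand) had counts of 104, 128 and 132 in C4-2B, against 252, 206 and 411 in RC4-2B. All 3 RC4-2B libraries were above all C4-2B libraries, and replicate 3 was the highest. After TMM scaling of the library totals, TUBB4A had 6.99 ± 0.692 CPM (SD, n = 3) in C4-2B, against 17.2 ± 6.33 CPM (SD, n = 3) in RC4-2B. It rose 2.46-fold, or by 1.30 on the log2 scale (standard error 0.26, 95% confidence interval 0.70 to 1.90, adjusted p = 0.0491 from edgeR). The SD in RC4-2B was 35.7% of the FPKM mean. Counting error alone gives 4.93% at 411 counts, the highest in RC4-2B, and 9.81% at 104 counts, the lowest in C4-2B. No RC4-2B library was below 206 counts.

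TUBB6 (ENSG00000176014, chr18:12307669-12344320, plus strand) had counts of 548, 483 and 516 in C4-2B, against 834, 798 and 782 in RC4-2B. The RC4-2B libraries lay close together and all above those of C4-2B. Its level was 29.8 ± 2.70 CPM (SD, n = 3) in C4-2B, against 47.9 ± 3.72 CPM (SD, n = 3) in RC4-2B. It rose 1.61-fold, or by 0.68 on the log2 scale (standard error 0.13, 95% confidence interval 0.40 to 0.97, adjusted p = 0.0343 from edgeR).

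Both calls were lost when any 1 library other than RC4-2B replicate 2 was left out, and the direction was the same in every fit. Over 17 alternatives, the log2 fold change of TUBB4A ran between 0.94 and 1.58 and passed the threshold in 8 of them (adjusted p between 6.72e-05 and 0.262). For TUBB6 it ran between 0.62 and 1.04, and 9 of 17 alternatives passed (adjusted p between 0.000526 and 0.219). Without RC4-2B replicate 2, the edgeR adjusted p was 6.72e-05 for TUBB4A (log2 fold change 1.51) and 0.000526 for TUBB6 (log2 fold change 0.72), in a fit that called 12.5% of all genes tested. Without RC4-2B replicate 1 they were 0.0545 and 0.0529, and without replicate 3 both were 0.109, with a log2 fold change of 0.97 for TUBB4A. Without C4-2B replicate 1, 2 or 3, the adjusted p was 0.262, 0.198 and 0.182 for TUBB4A and 0.143, 0.219 and 0.184 for TUBB6. DESeq2 gave adjusted p = 0.000317 for TUBB4A and 0.00111 for TUBB6, and called 5.93% of the genes to which it gave an adjusted p.

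**Figure D3:**
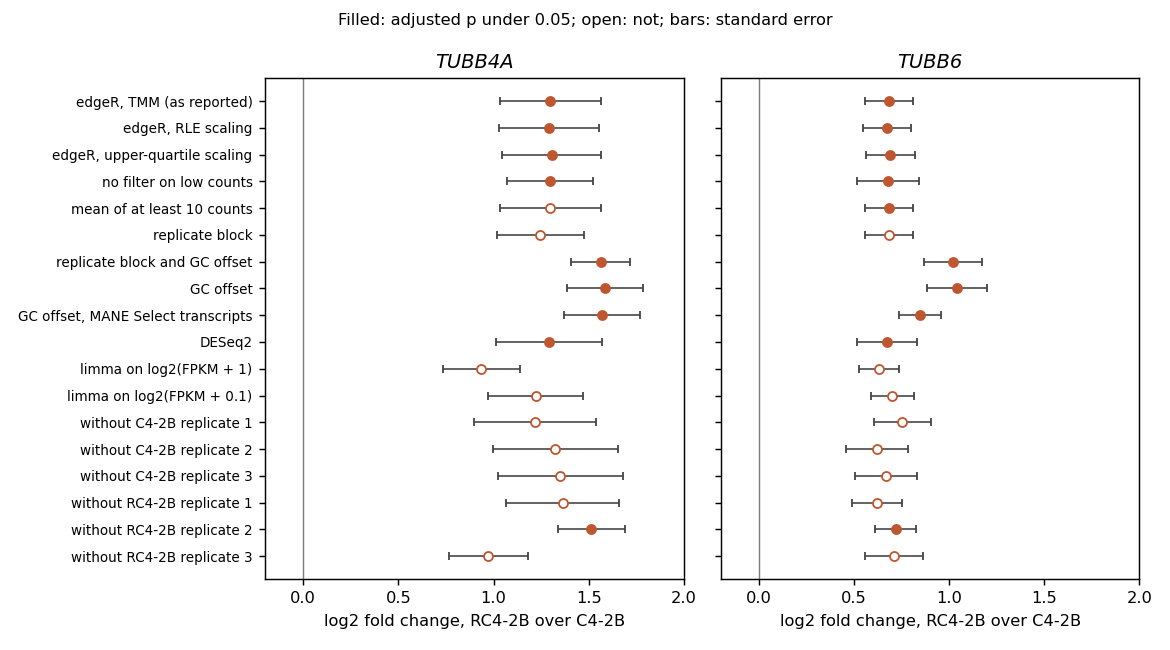
Log2 fold change of RC4-2B over C4-2B (x axis) for TUBB4A and TUBB6 under the reported fit and 17 alternatives (y axis), with standard errors as bars and filled points for an adjusted p under 0.05. Values lie between 0.94 and 1.58 for TUBB4A and between 0.62 and 1.04 for TUBB6, all above 0.

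The 229 tested genes of chr18 had a median log2 fold change of -0.18, with 3 higher and 16 lower, and a median of -0.31 after correction for GC content. The 1069 tested genes of chr19 had a median of -0.24, with 7 higher and 12 lower, and a median of -0.027 after the same correction. On each of these chromosomes more genes were called lower than higher, where 1.08% of all genes tested were called higher and 0.903% lower. AFG3L2, which encodes a mitochondrial protease, lies antisense to TUBB6 and shares 837 exon bases with it, none of them in the MANE Select transcript of TUBB6. AFG3L2 had a mean of 166 CPM in C4-2B, against 126 CPM in RC4-2B. Its log2 fold change, -0.40 (adjusted p = 0.0747 from edgeR), is opposite in sign to that of TUBB6. Overlapping antisense rows of TUBB4A were listed at 0 counts in every library. Whether strand was used in counting is not given in the sources used here.

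The 250 bases before the RefSeq start that equals the MANE Select start, from the GRCh38.p14 promoter set, are printed for TUBB4A and TUBB6. These isotypes rose in the same comparison. Capitals mark GGGCGG, the GC box, CCAAT, the CCAAT box, and CACGTG, the E-box, on either strand. Neighbouring GC boxes in TUBB6 touch without overlap.
TUBB4A (chr19:6502310-6502559, minus strand): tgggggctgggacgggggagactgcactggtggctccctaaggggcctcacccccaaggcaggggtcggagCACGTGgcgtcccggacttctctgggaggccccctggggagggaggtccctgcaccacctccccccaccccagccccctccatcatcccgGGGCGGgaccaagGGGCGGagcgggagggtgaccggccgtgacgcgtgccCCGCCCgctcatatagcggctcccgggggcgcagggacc
TUBB6 (chr18:12307991-12308240, plus strand): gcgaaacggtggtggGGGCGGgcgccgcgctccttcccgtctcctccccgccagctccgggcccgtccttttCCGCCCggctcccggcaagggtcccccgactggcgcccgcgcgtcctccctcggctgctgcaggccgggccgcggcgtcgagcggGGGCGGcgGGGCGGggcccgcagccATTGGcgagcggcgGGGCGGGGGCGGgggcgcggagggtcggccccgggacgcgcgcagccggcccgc

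The TUBB6 window held 6 GC boxes and 1 CCAAT box, and the TUBB4A window held 3 GC boxes and 1 E-box. Isotypes that were not called held GC boxes as well: 5 in TUBB2A, 3 in TUBB3, and 1 each in TUBB, TUBB2B and TUBB1. TUBB, TUBB2B and TUBB3 also held 1 CCAAT box each, and TUBB4B held 3 CCAAT boxes and no GC box. TUBB4A, TUBB6, TUBB and TUBB3 have another RefSeq start, 539, 572, 1286 and 1417 bases away. Boxes around that start were counted in a longer window, which also reaches past the start. There TUBB4A had 1 GC box and 2 CCAAT boxes, TUBB6 and TUBB3 had neither box, and TUBB had 6 GC boxes and 1 E-box. In the longer window at the MANE Select start, TUBB3 had 5 GC boxes, and the counts of TUBB4A, TUBB6 and TUBB were as above. The counts therefore depend on the start and the window chosen. Among 35116 windows of 250 bases before a RefSeq start, GGGCGG was found in 42.6%, CCAAT in 32.0% and CACGTG in 6.34%. A match describes letters and is not evidence of binding.

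The tested isotypes that did not pass the threshold included the most abundant ones. TUBB had 1935 ± 138 CPM (SD, n = 3) in C4-2B against 1710 ± 147 CPM (SD, n = 3) in RC4-2B, or -0.18 as log2 fold change (95% confidence interval -0.42 to 0.06, adjusted p = 0.337 from edgeR). For TUBB4B these were 820 ± 61.2 and 854 ± 165 CPM, or 0.058 (95% confidence interval -0.29 to 0.40, adjusted p = 0.829 from edgeR). For TUBB2A they were 20.0 ± 2.02 and 17.5 ± 4.00 CPM, or -0.19 (95% confidence interval -0.62 to 0.24, adjusted p = 0.549 from edgeR). A p-value that misses the threshold does not show equal levels. The intervals, which are not adjusted for the number of genes, hold changes that the data do not exclude, and are not limits of detection.

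RC4-2B replicate 2 moved the values of these isotypes. Without it the log2 fold change was -0.048 for TUBB2A, -0.25 for TUBB (adjusted p = 0.0552 from edgeR) and 0.21 for TUBB4B (adjusted p = 0.0973 from edgeR). With a GC offset, the log2 fold change of TUBB4B was 0.31 (adjusted p = 0.0727 from edgeR), and that of TUBB was -0.12. None of these isotypes passed the threshold in these fits.

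The summed FPKM of the 8 isotypes overlapped between the cell lines, and the shares of TUBB4A and TUBB6 did not. The sum was 935, 894 and 820 FPKM in C4-2B, against 871, 837 and 862 FPKM in RC4-2B. The means were 883 ± 58.3 (SD, n = 3) and 857 ± 17.4 FPKM (SD, n = 3), a log2 ratio of -0.044, and the groups overlapped. TUBB and TUBB4B together made up 97.9% ± 0.235 (SD, n = 3) of the sum in C4-2B and 97.1% ± 0.284 (SD, n = 3) in RC4-2B, with no overlap (exact two-sided permutation p = 0.1). This is the smallest p that 3 libraries against 3 allow, so no share could pass 0.05, and the shares of all 8 isotypes were compared. The joint share is what the other isotypes leave of the sum, so its fall is not separate from the rise of TUBB4A and TUBB6.

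Within the less abundant isotypes, the share of TUBB6 was 0.760%, 0.662% and 0.785% in C4-2B, against 1.30%, 1.23% and 1.17% in RC4-2B. The share of TUBB4A was 0.171%, 0.208% and 0.238% in C4-2B, against 0.467%, 0.379% and 0.730% in RC4-2B. For both isotypes the lowest RC4-2B library exceeded the highest of C4-2B (exact two-sided permutation p = 0.1 for each). In FPKM, TUBB6 was below TUBB2A in every C4-2B library and above it in every RC4-2B library, although both were at 1.30% in replicate 1. Per coding length there was no such crossing: TUBB6 made up 1.09%, 0.950% and 1.13% in C4-2B, and TUBB2A 0.718%, 0.615% and 0.802%. The rise of the TUBB6 share was 0.500 percentage points in FPKM and 0.742 per coding length. The TUBB2A share was 1.18% ± 0.154 (SD, n = 3) and 1.07% ± 0.204 (SD, n = 3), and overlapped between the cell lines.

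**Figure D4:**
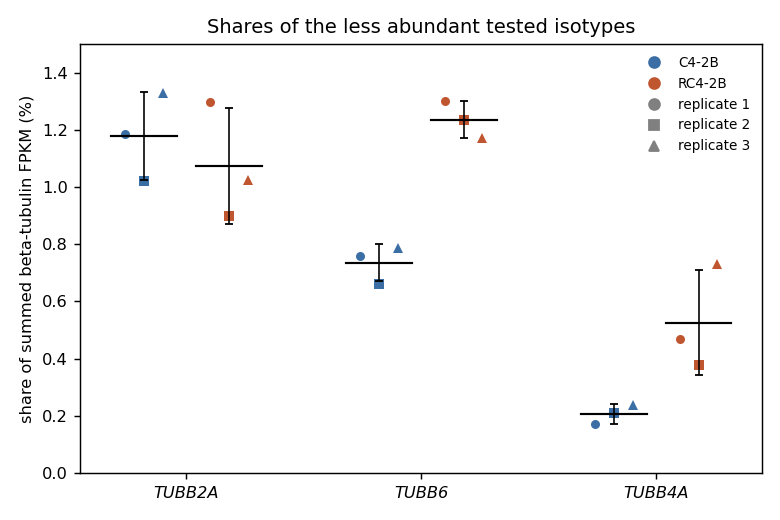
Share of the summed beta-tubulin FPKM in percent (y axis) of TUBB2A, TUBB6 and TUBB4A (x axis), with points for libraries and bars for the mean ± SD of 3 libraries. TUBB6 lies at 0.662% to 0.785% in C4-2B and 1.17% to 1.30% in RC4-2B, and TUBB4A also separates the cell lines.

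The balance of TUBB and TUBB4B was tight in C4-2B and wide in RC4-2B. TUBB made up 58.2%, 58.9% and 58.3% of the sum in C4-2B, against 51.1%, 62.3% and 49.6% in RC4-2B. TUBB4B made up 39.7%, 39.2% and 39.3% in C4-2B, against 45.8%, 35.1% and 47.5% in RC4-2B. RC4-2B replicates 1 and 3 had less TUBB than C4-2B and replicate 2 had more, so the groups overlapped (exact two-sided permutation p = 0.4 for each isotype). Without replicate 2, the mean share in RC4-2B less that in C4-2B was -8.12 percentage points for TUBB and 7.25 points for TUBB4B.

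The position of replicate 2 changed when the GC trend of each library was removed from the FPKM at the GC content of each isotype, an alternative chosen after seeing the data. At the GC content of the MANE Select transcripts, the trend in replicate 2 was -0.033 on the log2 scale for TUBB, -0.46 for TUBB4B, -0.56 for TUBB4A and -0.31 for TUBB6. After its removal, the TUBB share was 60.6%, 60.5% and 60.1% in C4-2B, against 52.0%, 55.3% and 49.6% in RC4-2B. The TUBB4B share was then 37.3%, 37.6% and 37.6% in C4-2B, against 44.9%, 41.8% and 47.4% in RC4-2B. With this correction all RC4-2B libraries had less TUBB and more TUBB4B than all C4-2B libraries (exact two-sided permutation p = 0.1 for each). The smoothed trend includes both cell lines, so any true mean GC difference between them was removed as well.

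**Figure D5:**
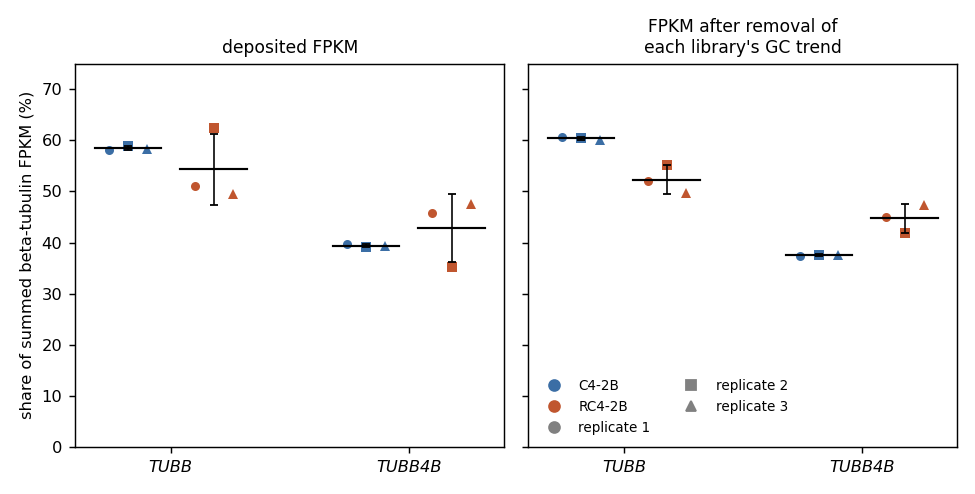
Share of the summed beta-tubulin FPKM in percent (y axis) of TUBB and TUBB4B (x axis), from the deposited FPKM (left) and after removal of each library's GC trend (right), with points for libraries and bars for the mean ± SD of 3 libraries. RC4-2B replicate 2 is at 62.3% TUBB on the left and at 55.3% on the right, where the cell lines no longer overlap.

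TUBB3, TUBB2B and TUBB1 were at or near the floor of 3 counts. TUBB3 had 5, 3 and 4 counts in C4-2B, against 6, 4 and 3 in RC4-2B. TUBB2B had 4, 1 and 4 counts and 3, 2 and 2 counts, and TUBB1 had 6, 9 and 8 counts and 6, 11 and 5 counts. Neither cell line stood apart for any of these isotypes. Summed over 3 libraries, TUBB3 had 12 counts in C4-2B (95% Poisson interval 6.20 to 21.0) and 13 in RC4-2B (6.92 to 22.2), an interval that covers counting error only. The sums were 9 and 7 for TUBB2B and 23 and 22 for TUBB1. A difference was not detectable at these counts. For TUBB2B and TUBB3 the counts also depend on how shared reads were treated, which is not given.

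Several markers of neuronal cells and of platelets were at the floor as well. Of 10 neuronal and neuroendocrine markers, 5 were at or under 3 counts in every library, including DCX, STMN2 and INSM1, and the summed level was 5.16 to 6.83 FPKM in C4-2B and 3.70 to 4.37 FPKM in RC4-2B. MAP2, a neuronal microtubule-associated protein, fell by 0.90 on the log2 scale (adjusted p = 0.0478 from edgeR), a call that was lost with the replicate block, with limma and without any 1 library other than RC4-2B replicate 2. Of 5 megakaryocyte and platelet markers, 3 were at or under 3 counts in every library, among them PF4 and PPBP, with sums of 0.763 to 1.09 and 0.639 to 1.24 FPKM. Of 5 fibroblast markers, 3 were at or under 3 counts in every library, with sums of 2.29 to 2.58 and 2.46 to 3.74 FPKM. Whether other cells contribute to the isotype levels was not tested.

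Beyond the 8 isotypes, the tables held 35 other rows whose symbols start with TUBB, of which 33 were pseudogenes and 22 had no count in any library. Together they had 0.319% to 0.443% of the counts of the 8 isotypes. TUBBP5 was the only one with a mean over 100 counts, at 147, 154 and 163 counts in C4-2B, against 123, 122 and 116 in RC4-2B.

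Alpha-tubulin, the partner of beta-tubulin in the dimer, was compared as a list of 10 genes. Of these, 7 were tested and 1 was called, where 1.98% of all genes tested were called. The member that rose was TUBA1A, from 0.950 ± 0.316 FPKM (SD, n = 3) to 4.04 ± 1.63 FPKM (SD, n = 3), or by 2.06 on the log2 scale (adjusted p = 0.0272 from edgeR). The median log2 fold change of the 7 was 0.27, against 0.0063 for all genes tested, and was 0.17 without RC4-2B replicate 2 and 0.47 with the GC offset. The ratio of summed alpha- to beta-tubulin FPKM was 0.421, 0.419 and 0.426 in C4-2B, against 0.494, 0.700 and 0.444 in RC4-2B (exact two-sided permutation p = 0.1). The highest ratio came from RC4-2B replicate 2, in which TUBA1B, the most abundant alpha-tubulin and chosen here after its values were seen, was at 351 FPKM against 191 to 244 FPKM in the other 5 libraries.

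The machinery that folds beta-tubulin and regulates its mRNA did not pass the test. This list holds the chaperonin CCT, prefoldin, the tubulin cofactors and TTC5 with its partners. All 24 rows were tested and none was called higher or lower, with log2 fold changes from -0.66 to 0.43 and a median of -0.060. At an unadjusted p under 0.05 from edgeR, 1 was higher (SCAPER) and 1 lower (TBCB), DESeq2 and limma called none, and edgeR called TBCB lower without RC4-2B replicate 2 and 1 member lower with no filter on low counts. CCT3 and CCT6A, subunits of the chaperonin that folds tubulin, were its most abundant members. CCT3 was at 164 ± 6.51 FPKM (SD, n = 3) in C4-2B and 178 ± 9.59 FPKM (SD, n = 3) in RC4-2B, and CCT6A at 148 ± 2.62 and 147 ± 19.9 FPKM.

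Among 18 enzymes that add or remove glutamate or glycine on the tubulin tails, 10 were tested and 1 rose. Of all genes tested, 1.98% were called in either direction. TTLL7, a polyglutamylase with a preference for beta-tubulin, was at 1.05, 1.37 and 1.22 FPKM in C4-2B, against 1.85, 2.60 and 2.31 FPKM in RC4-2B. All RC4-2B libraries were above all C4-2B libraries, and 34.1% of all genes tested had groups without overlap in CPM. TTLL7 rose by 0.87 on the log2 scale (SE 0.17, adjusted p = 0.0421 from edgeR). TTLL6 had a log2 fold change of 0.93 and groups that did not overlap, but did not pass the threshold (unadjusted p = 0.00964, adjusted p = 0.127 from edgeR). The median of the 10 was 0.080. Without any 1 of the C4-2B libraries or without RC4-2B replicate 3, neither TUBA1A nor TTLL7 was called.

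The genes outside the family whose log2 CPM followed an isotype most closely over the 6 libraries, among 10006 genes compared, were EXOSC8 (Pearson r = 0.988), CNBP (0.984) and MRPL32 (0.983) for TUBB. For TUBB4A they were GPER1 (0.988), DLGAP4 (0.985) and AKAP1 (0.983). These 6 points fall into 2 cell lines and share their libraries, so the values describe likeness of pattern only.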

How the data were processed

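RNAseq libraries of C4-2B and RC4-2B (3 each) were compared. The sample labels name fetal bovine serum for the medium, and the paper's RNAseq methods also name charcoal-stripped serum. Reads had been aligned by the authors (STAR, GRCh38), who deposited unnormalized whole-number counts of reads for every gene. Their deposited FPKM equal these counts over gene length and over 1 constant per library. The counts on genes were 87.9% to 90.8% of that constant in 5 libraries and 96.3% in RC4-2B replicate 2. The counting program, its use of strand and of shared reads, and the annotation release are not given in the sources used here. Of 58735 gene IDs, 58207 were found in GENCODE release 44.

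The fit used edgeR 4.0.16 in R 4.3.3 (TMM, filterByExpr, glmQLFit and glmQLFTest, with no covariate beside cell line) and Benjamini-Hochberg adjustment over 15054 genes. The study's methods name DESeq2, run here (version 1.42.0) as an alternative. Other alternatives were RLE and upper-quartile scaling, no filter, a minimum mean of 10 counts, a replicate block, a GC offset (lowess, span 0.2), limma 3.58.1 on log2(FPKM + 1) and log2(FPKM + 0.1), and each library left out. A GC offset at MANE Select transcripts was added after the data were seen. On simulated data with large changes (median absolute log2 fold change 2.02), 193 of 200 changed genes were recovered and 10 of 14592 unchanged genes were called. The simulation held no GC trend and no outlying library. It did not test changes as small as those of TUBB4A and TUBB6. Shares were compared by exact permutation (scipy 1.17.1), and windows and alignments were computed in Python 3.11.15 with Biopython 1.88.

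The named genes are the 8 isotypes, members of the 3 pathway lists past the threshold or otherwise the 2 most abundant of a list, pseudogene rows with a mean over 100 counts, and the 3 genes most like the most abundant isotype and most like the isotype with the largest change. TUBA1B, SCAPER, TBCB, TTLL6, AFG3L2 and the cell type markers were named after their values were seen. The result of 1 marker list is not reported here. The members and lists were chosen with earlier results of these data known. All pairs of replicates differed by more than sampling noise (chi-square per gene 3.37 to 65.0). Replicates were taken as biological because the labels say so.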

Additional observations from a re-analysis of the deposited data

How the results depend on the processing

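Whether replicate numbers pair the libraries was not settled, because deviations of 3 libraries from their own group mean are not independent. Same-numbered libraries had deviations from their group means that correlated at 0.38, 0.21 and -0.090. C4-2B replicates 1 and 2 correlated best with their own number, and C4-2B replicate 3 with RC4-2B replicate 2 (0.22). With the replicate block, 0 isotypes were called, with adjusted p of 0.0586 for TUBB4A and 0.0575 for TUBB6 from edgeR, and 129 genes in all. The number of isotypes called was 2 as reported, 1 with a mean of at least 10 counts (TUBB6, with TUBB4A at 0.0511), and 0 with limma on log2(FPKM + 1) or log2(FPKM + 0.1). It was 0 to 2 with 1 library left out, and 2 only without RC4-2B replicate 2. The number of genes called, 298 as reported, was 1250 with no filter, 1147 with the GC offset, 1168 with the GC offset at MANE Select transcripts, 1206 with the replicate block and GC offset, 902 with DESeq2, 104 and 86 with limma on log2(FPKM + 1) and log2(FPKM + 0.1), and 44 to 1925 with 1 library left out. Called members of the 3 tubulin pathway lists (alpha-tubulin, folding and tail enzymes, without the marker lists), 2 as reported, were 4 with no filter, 1 with the replicate block, 0 with either limma fit and 0 to 3 with 1 library left out (0 without any C4-2B library or RC4-2B replicate 3, 3 without RC4-2B replicate 2). The log2 fold change of TUBB4B was between -0.034 and 0.21 with 1 library left out, and was below 0 without C4-2B replicate 3 (-0.0028), RC4-2B replicate 1 (-0.014) or RC4-2B replicate 3 (-0.034). That of TUBB2A was 0.037 with the GC offset at MANE Select transcripts. The log2 ratio of summed FPKM, -0.044 as reported, was 0.062 with the GC trend removed and -0.094 to -0.00038 with 1 library left out. The joint share of TUBB and TUBB4B changed by -0.72 percentage points as reported, by -1.09 with counts in place of FPKM, by -1.09 per coding length, and by -0.87 to -0.60 with 1 library left out. The cause of these differences was not tested. The log2 fold change of TUBB kept its sign under all 17 alternatives, and passed the threshold in none. TUBB1, TUBB2B and TUBB3 had 1 to 11 counts per library, which no setting can resolve. Whether depth or the treatment of shared reads keeps TUBB2B and TUBB3 low was not tested.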
